A study of Homo sapiens with 9 samples.

Results

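The extracellular protease network was followed through 10 genes in MDA-MB-231 cells in which acid ceramidase was knocked down: the matrix metalloproteinases MMP1, MMP2, MMP3, MMP9, MMP13 and MMP14, the tissue inhibitors TIMP1, TIMP2 and TIMP3, and the related protease ADAMTS1. They were taken by gene symbol from both deposited expression tables and make up 10 of the 26485 genes listed in each table. MDA-MB-231 is a long-established cell line from a human breast carcinoma of the triple-negative type. ASAH1 encodes acid ceramidase, the lysosomal enzyme that splits ceramide into sphingosine and a fatty acid. The cells stably expressed a nonspecific control hairpin (NS shRNA), ASAH1 shRNA #1 or ASAH1 shRNA #2, with 3 RNA-seq libraries in each of the 3 groups, and all groups were grown in serum-containing medium. Each group carries 1 hairpin stably, so that the hairpin sequence and the derivation of those cells cannot be told apart.

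Matrix metalloproteinases are zinc-dependent enzymes that cleave collagens, laminins, fibronectin and other proteins around the cell, and most are made as inactive precursors that another protease must cut. TIMPs are small secreted proteins that block the active site, and TIMP2 at low amounts also helps MMP14 on the cell surface to activate MMP2. In breast tumours these enzymes are best known from invasion and metastasis, where much of the supply comes from stromal cells as well as from the tumour cells.

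The catalytic site that defines the 7 enzymes is shown first because it is the feature they share and the one that TIMPs occupy. A zinc-binding site of 11 codons, with 3 histidines and a catalytic glutamate, was found once in the MANE Select coding sequence of each enzyme (GENCODE 44, hg38), and in 86 of 19061 such coding sequences in all. In the lines below the codons of the histidines and the glutamate are in capitals, each sequence is given 5′ to 3′ on the coding strand, and each site but that of ADAMTS1 lies within 1 exon.
MMP1, exon 5, minus strand, chr11:102795549-102795581: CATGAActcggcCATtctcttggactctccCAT
MMP13, exon 5, minus strand, chr11:102952115-102952147: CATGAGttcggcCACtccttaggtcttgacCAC
MMP3, exon 5, minus strand, chr11:102840535-102840567: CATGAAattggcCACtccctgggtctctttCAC
MMP2, exon 8, plus strand, chr16:55491827-55491859: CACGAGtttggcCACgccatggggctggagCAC
MMP9, exon 8, plus strand, chr20:46012453-46012485: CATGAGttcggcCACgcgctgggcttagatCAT
MMP14, exon 5, plus strand, chr14:22843283-22843315: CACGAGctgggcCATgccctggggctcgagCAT
ADAMTS1, across an exon junction, minus strand, chr21:26841143-26841867 with the intron: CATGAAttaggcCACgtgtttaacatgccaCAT

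Of the 33 bases of this stretch, MMP3 shared 24 with MMP1, MMP14 shared 23, MMP13 shared 22, MMP9 shared 21, ADAMTS1 shared 19 and MMP2 shared 18. The inhibitors carry at their mature amino terminus the cysteine that reaches the enzyme's zinc. That stretch of 12 codons, searched by its conserved cysteines, prolines, histidine and glutamine, was found in 4 of the 19061 coding sequences, and the codons of its first and second cysteines are in capitals.
TIMP1, exon 2, plus strand, chrX:47583485-47583520: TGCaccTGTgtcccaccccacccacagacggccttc
TIMP2, exon 1, minus strand, chr17:78924975-78925010: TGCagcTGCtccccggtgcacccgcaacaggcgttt
TIMP3, exon 1, plus strand, chr22:32802071-32802106: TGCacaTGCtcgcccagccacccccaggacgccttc

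The libraries held 30989598 to 34867548 reads on genes for NS shRNA, 23806003 to 39791698 for ASAH1 shRNA #1 and 35653318 to 49659106 for ASAH1 shRNA #2. Values are normalised read counts, the reads of a gene divided by the size factor of its library, and the tables of the hairpins were normalised separately with the same NS shRNA libraries in each. ASAH1 was lower with both hairpins, with log2 fold changes of −1.76 ± 0.050 (SE) for ASAH1 shRNA #1 and −2.63 ± 0.057 for ASAH1 shRNA #2 (limma, adjusted p = 9.49e-09 and 5.42e-10, n = 3 against 3), and its mean fell from 4489 to 1327 and from 4852 to 783. Markers of the line (VIM, CD44, AXL and CAV1) were abundant in all 9 libraries, and the receptors ESR1 and PGR, which the line is known to lack, held at most 3 reads in any library. Of the 3 fibroblast, 3 endothelial and 3 leukocyte markers looked up, DCN and CDH5 held at most 3 reads in any library, PTPRC at most 8 and VWF at most 14. The others were read: in the table of ASAH1 shRNA #2 the NS shRNA means were 1048 for CD14, 961 for PDGFRB, 147 for LUM, 143 for CSF1R and 104 for PECAM1. PECAM1, LUM and PDGFRB were called lower with both hairpins, CD14 with ASAH1 shRNA #1 and CSF1R with ASAH1 shRNA #2 (limma, adjusted p at most 0.0200). The summed leukocyte list was 31.4 to 37.8 RPM (reads scaled to library depth) in the NS shRNA libraries, 11.8 to 12.4 RPM in those of ASAH1 shRNA #1 and 29.5 to 33.7 RPM in those of ASAH1 shRNA #2. Most of this sum was CD14, at means of 30.0, 6.83 and 29.2 RPM in the same order, while CSF1R was at 4.10, 5.21 and 2.43 RPM. The summed fibroblast list was 29.4 to 34.6, 15.5 to 17.98 and 11.2 to 13.1 RPM, and the endothelial list 3.01 to 3.27, 1.74 to 2.81 and 1.37 to 1.97. Whether these levels had a part in the results below was not tested.

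The 10 genes fell into an abundant set and a scarce set. Per transcript length, in RPKM (reads per kb of the MANE Select transcript, scaled to the reads on genes), TIMP1 stood at 363 ± 35.6 (SD, n = 3), TIMP2 at 345 ± 5.74, MMP14 at 130 ± 4.37 and TIMP3 at 109 ± 1.25 in NS shRNA cells. The other members were far below, with MMP1 at 0.612 ± 0.078, MMP9 at 0.345 ± 0.087, ADAMTS1 at 0.057 ± 0.0085, MMP2 at 0.041 ± 0.012, MMP13 at 0.011 ± 0.011 and MMP3 without a read. In this order the NS shRNA libraries of TIMP1 and TIMP2 overlapped, as did those of ADAMTS1 and MMP2 and those of MMP13 and MMP3, while all other neighbours were separate.

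With ASAH1 shRNA #1 the first 6 places were unchanged in order, from TIMP1 at 293 ± 19.6 through TIMP2, MMP14, TIMP3 and MMP1 to MMP9 at 1.26 ± 0.089, and MMP3 moved above MMP2. With ASAH1 shRNA #2, TIMP3 at 119 ± 0.60 stood above MMP14 at 75.6 ± 1.29 and the libraries of the 2 genes did not overlap. MMP2 at 0.349 ± 0.070 stood above MMP9 at 0.072 ± 0.014 there, and ADAMTS1 was last at 0.0057 ± 0.0058, overlapping with MMP13. MMP14 made up most of the summed level of the 6 MMP genes in every library: 99.1 to 99.3% in NS shRNA libraries, 91.4 to 91.9% with ASAH1 shRNA #1 and 98.16 to 98.22% with ASAH1 shRNA #2. MMP1 supplied 6.79 to 7.22% of that sum with ASAH1 shRNA #1, as compared to 0.397 to 0.528% in NS shRNA.

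**Figure D1:**
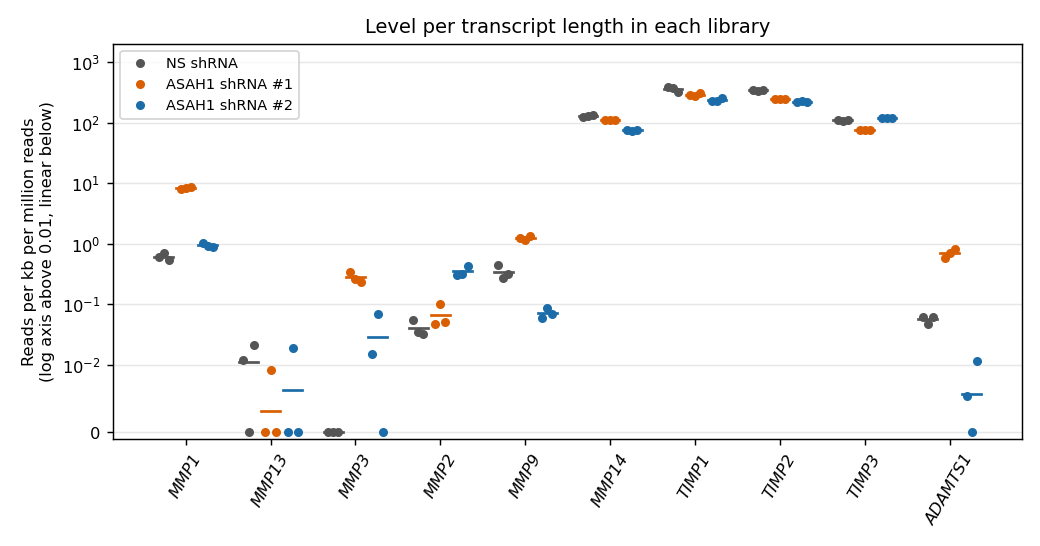
Level of each gene in RPKM (y axis, logarithmic above 0.01 and linear below) for the 3 groups, with 1 point per library and the group mean as a line. TIMP1, TIMP2, MMP14 and TIMP3 lie between 75.6 and 363 in their group means, and no other gene has a group mean above 8.40.

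In comparison with NS shRNA, 7 of the 10 genes passed the expression filter, a mean normalised count of 10 or more, with each hairpin, and all 7 differed each time. With ASAH1 shRNA #1, 3 were higher and 4 lower, where 32.8% and 33.3% of the 14341 genes tested were called higher and lower. With ASAH1 shRNA #2, 3 were higher and 4 lower, where 33.5% and 33.4% of 14250 genes were called. With about 2 in 3 of all genes called, a call by itself says little about the members. ADAMTS1 with ASAH1 shRNA #1, and MMP2 and MMP9 with ASAH1 shRNA #2, passed the filter only through the group in which they were high. Their calls were therefore favoured in advance. The median log2 fold change of the tested members was −0.25 with ASAH1 shRNA #1 and −0.47 with ASAH1 shRNA #2, beside 0.0013 and 0.013 over all genes tested. These medians are the values of MMP14 and TIMP1, and the sets differ: ADAMTS1 was tested only with ASAH1 shRNA #1 and MMP2 only with ASAH1 shRNA #2. The comparisons share their NS shRNA libraries.

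**Figure D2:**
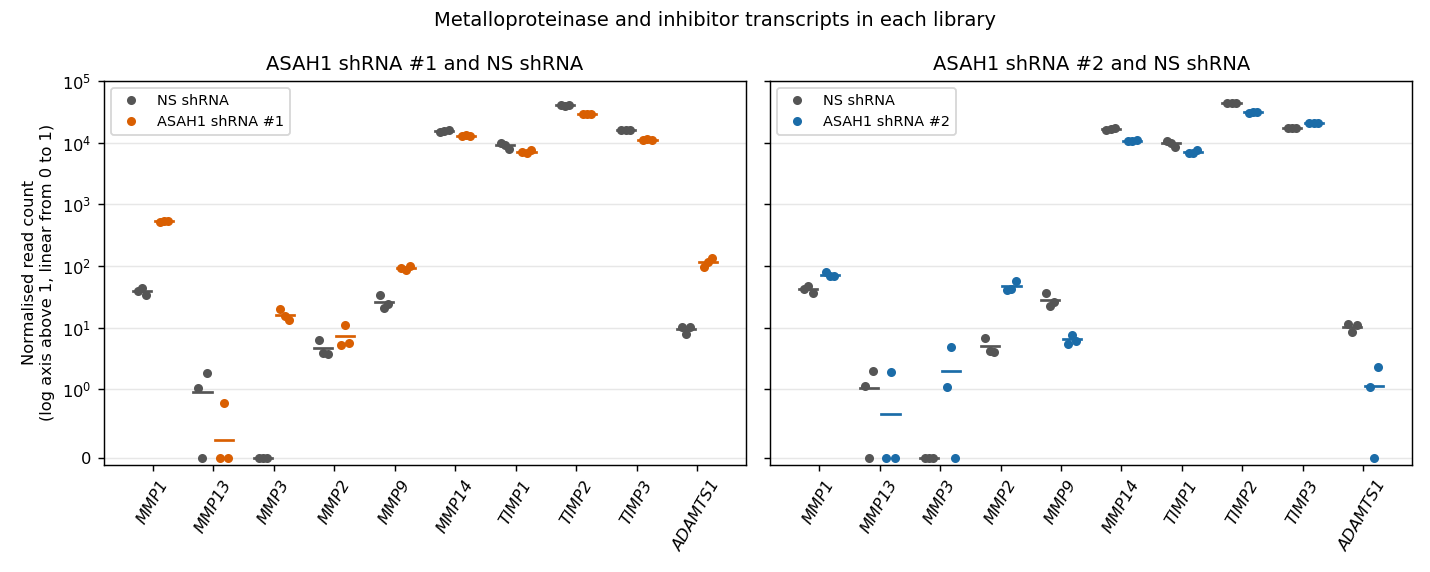
Normalised read count of each gene in each library (y axis, logarithmic above 1 and linear from 0 to 1), with ASAH1 shRNA #1 and NS shRNA on the left and ASAH1 shRNA #2 and NS shRNA on the right, and with lines at the group means. MMP1 goes from a mean of 39.0 to 528 on the left and from 42.2 to 71.7 on the right, while MMP9 goes from 26.0 to 94.0 on the left and from 28.1 to 6.46 on the right.

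Among the collagenases, which cut fibrillar collagen, MMP1 rose with both hairpins. MMP1 (chr11:102789401-102798160, minus strand) had normalised counts of 38.7, 44.2 and 34.2 in the NS shRNA libraries and of 509, 532 and 544 in those of ASAH1 shRNA #1. In the other table the NS shRNA libraries had 41.8, 47.9 and 36.8 and those of ASAH1 shRNA #2 had 78.7, 68.0 and 68.3. The groups did not overlap in either table, but the means differed 13.5-fold with ASAH1 shRNA #1 and 1.70-fold with ASAH1 shRNA #2. On the scale of log2(normalised count + 1) the differences were 3.73 ± 0.12 (SE) and 0.76 ± 0.18 (limma, adjusted p = 1.86e-08 and 0.00343, n = 3 against 3). MMP13 (chr11:102942995-102955732, minus strand), which cleaves type II collagen in cartilage, was nearly silent: the NS shRNA libraries held 1, 0 and 2 reads, those of ASAH1 shRNA #1 held 0, 1 and 0, and those of ASAH1 shRNA #2 held 0, 2 and 0. At this depth no difference in MMP13 was detectable, and no fold is given.

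MMP3 (stromelysin 1, chr11:102835801-102843609, minus strand), which digests proteoglycans and activates other MMP precursors, was read only in knockdown libraries. The 3 NS shRNA libraries held 0 reads each, which allows up to 3 reads in a library. The libraries of ASAH1 shRNA #1 held 15, 19 and 14 reads, or 20.1, 15.3 and 13.5 normalised counts. Set against a floor of 3 reads per library, MMP3 was at least 5.51-fold higher with ASAH1 shRNA #1, and every library lay above the floor. With ASAH1 shRNA #2 the libraries held 1, 5 and 0 reads, a mean at or under the same floor, and no fold is given. The mean of MMP3 lay below the filter in both tables, and it was not tested against NS shRNA.

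The gelatinases, which cleave denatured collagen and type IV collagen of basement membranes, each moved differently with the hairpins. MMP9 (chr20:46008908-46016561, plus strand) had 33.5, 20.6 and 24.0 normalised counts in NS shRNA and 93.6, 87.6 and 101 with ASAH1 shRNA #1. In the table of ASAH1 shRNA #2 the values were 36.1, 22.4 and 25.9 in NS shRNA and 5.39, 7.77 and 6.21 in the knockdown. All knockdown libraries of ASAH1 shRNA #1 were above all NS shRNA libraries, and all of ASAH1 shRNA #2 were below them. MMP9 rose by 1.84 ± 0.20 (log2, SE) for ASAH1 shRNA #1 and fell by 1.95 ± 0.33 for ASAH1 shRNA #2 (limma, adjusted p = 3.61e-05 and 0.000402), a mean 3.61 times that of NS shRNA in the one and 4.36 times below it in the other. These values rest on 21 to 32 reads in a NS shRNA library and on 5 to 8 reads in a library of ASAH1 shRNA #2.

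MMP2 (chr16:55389700-55506691, plus strand) was close to the limit of detection in NS shRNA, with 6, 4 and 4 reads. In the libraries of ASAH1 shRNA #2 it had 41.0, 41.8 and 58.2 normalised counts against 6.78, 4.26 and 3.98 in NS shRNA, with no overlap. The mean was 9.38 times higher, and the difference was 3.01 ± 0.32 on the log2 scale (limma, adjusted p = 1.42e-05), or 2.37 with a pseudocount of 5 in place of 1. With ASAH1 shRNA #1 the values were 5.35, 11.2 and 5.77 against 6.28, 3.93 and 3.69, the groups overlapped, and MMP2 was not tested because its mean lay below the filter.

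MMP14 (chr14:22836560-22849041, plus strand), the membrane-anchored collagenase and the activator of MMP2, was the abundant enzyme and fell with both hairpins. Its normalised counts were 15109, 15583 and 16039 in NS shRNA and 12930, 13331 and 12925 with ASAH1 shRNA #1. They were 16304, 16916 and 17293 in NS shRNA and 10742, 10474 and 10972 with ASAH1 shRNA #2. The groups did not overlap, and the knockdown means were 0.839 and 0.637 times those of NS shRNA. The log2 differences were −0.25 ± 0.042 and −0.65 ± 0.049 (limma, adjusted p = 0.000552 and 1.32e-06).

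The inhibitors fell with both hairpins except TIMP3. TIMP2 (chr17:78852977-78925387, minus strand), the inhibitor that also bridges MMP14 and the MMP2 precursor, had the highest read counts of the 10 genes, with 40809, 40088 and 41278 normalised counts in NS shRNA and 29153, 28722 and 28750 with ASAH1 shRNA #1. The values were 44035, 43515 and 44506 in NS shRNA and 30715, 31891 and 31268 with ASAH1 shRNA #2. The groups did not overlap, with log2 differences of −0.50 ± 0.039 and −0.49 ± 0.046 (limma, adjusted p = 3.69e-06 and 5.46e-06). The gene CEP295NL lies inside TIMP2 on the same strand, and reads in any shared exon cannot be assigned to one of them.

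TIMP1 (chrX:47582408-47586789, plus strand), a secreted inhibitor with a broad range of MMP targets, varied more between libraries. In NS shRNA it had 9786, 9286 and 8010 normalised counts, and 6991, 6824 and 7744 with ASAH1 shRNA #1. In the other table it had 10559, 10080 and 8637 in NS shRNA and 6733, 6751 and 7602 with ASAH1 shRNA #2. The lowest NS shRNA library remained above the highest knockdown library in each table, and TIMP1 fell, by log2 fold changes of −0.33 ± 0.078 and −0.47 ± 0.080 (limma, adjusted p = 0.00455 and 0.000407).

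TIMP3 (chr22:32801705-32863041, plus strand), the inhibitor that stays bound to the matrix and also blocks ADAM and ADAMTS proteases, moved in opposite directions. It had 16297, 15980 and 16277 normalised counts in NS shRNA and 11058, 11325 and 11271 with ASAH1 shRNA #1. Against 17586, 17346 and 17550 in NS shRNA it had 21052, 20814 and 20901 with ASAH1 shRNA #2. The groups were separate in each table, and TIMP3 fell by 0.53 ± 0.039 with ASAH1 shRNA #1 and rose by 0.26 ± 0.045 with ASAH1 shRNA #2 on the log2 scale (limma, adjusted p = 2.73e-06 and 0.000483). TIMP1 lies within SYN1 and TIMP3 within SYN3, each on the opposite strand, and the reads were counted by strand.

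ADAMTS1 (chr21:26835755-26845409, minus strand), a secreted protease that cuts the proteoglycans versican and aggrecan, also moved in opposite directions. Its values were 10.5, 7.85 and 10.2 normalised counts in NS shRNA and 97.6, 118 and 135 with ASAH1 shRNA #1. The groups were 12.3-fold apart and did not overlap, with a log2 difference of 3.49 ± 0.21 (limma, adjusted p = 8.52e-07). With ASAH1 shRNA #2 the knockdown libraries held 1, 0 and 3 reads, as compared to 10, 8 and 11 in NS shRNA. From these 4 and 29 reads the level of NS shRNA was 8.32 times that of ASAH1 shRNA #2, with an exact 95% interval of 2.92 to 32.6 that covers counting error only, and ADAMTS1 was not tested there because its mean lay below the filter.

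Whether the hairpins differed was tested directly on the whole reads of all 9 libraries, which share 1 normalisation. Of the 9 members tested, 2 were higher and 5 lower with ASAH1 shRNA #2 than with ASAH1 shRNA #1, where 31.1% and 32.1% of 14714 genes were called higher and lower. MMP2, MMP3, MMP9 and ADAMTS1 passed the filter of this test through the groups in which they were high, which favoured a difference in advance. The 5 genes that were lower with ASAH1 shRNA #2 were MMP1, MMP14, MMP9, MMP3 and ADAMTS1. MMP1 was at −3.01 ± 0.11 (log2, SE) and MMP14 at −0.40 ± 0.039 (edgeR, adjusted p = 1.70e-09 and 3.96e-06). MMP9 was at −3.95 ± 0.25, MMP3 at −3.14 ± 0.66 and ADAMTS1 at −6.56 ± 0.37 (edgeR, adjusted p = 1.31e-07, 0.00222 and 6.13e-08). The fitted values of MMP3 and ADAMTS1 depend on a prior count and on single libraries: without ASAH1 shRNA #2 replicate 3 ADAMTS1 was at −7.63 and MMP3 at −2.45, and without ASAH1 shRNA #2 replicate 2 MMP3 was at −4.91. Reads per depth of MMP3 were 10.3 times higher with ASAH1 shRNA #1 (48 against 6 reads, exact 95% interval 4.39 to 29.4), and those of ADAMTS1 116 times (360 against 4 reads, 44.8 to 427).

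The 2 genes that were higher with ASAH1 shRNA #2 were MMP2, by 2.46 ± 0.32, and TIMP3, by 0.78 ± 0.035 (edgeR, adjusted p = 3.63e-05 and 9.84e-09). A difference was not shown for TIMP1, at −0.15 with a 95% interval of −0.33 to 0.027 (edgeR, adjusted p = 0.124), nor for TIMP2, at −0.0033 with an interval of −0.077 to 0.071 (edgeR, adjusted p = 0.938). With upper quartile in place of TMM normalisation, TIMP1 and TIMP2 passed the threshold at −0.23 and −0.085 (edgeR, adjusted p = 0.0279 and 0.0433), while the median of all genes moved to −0.087. MMP13 was not tested.

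**Figure D3:**
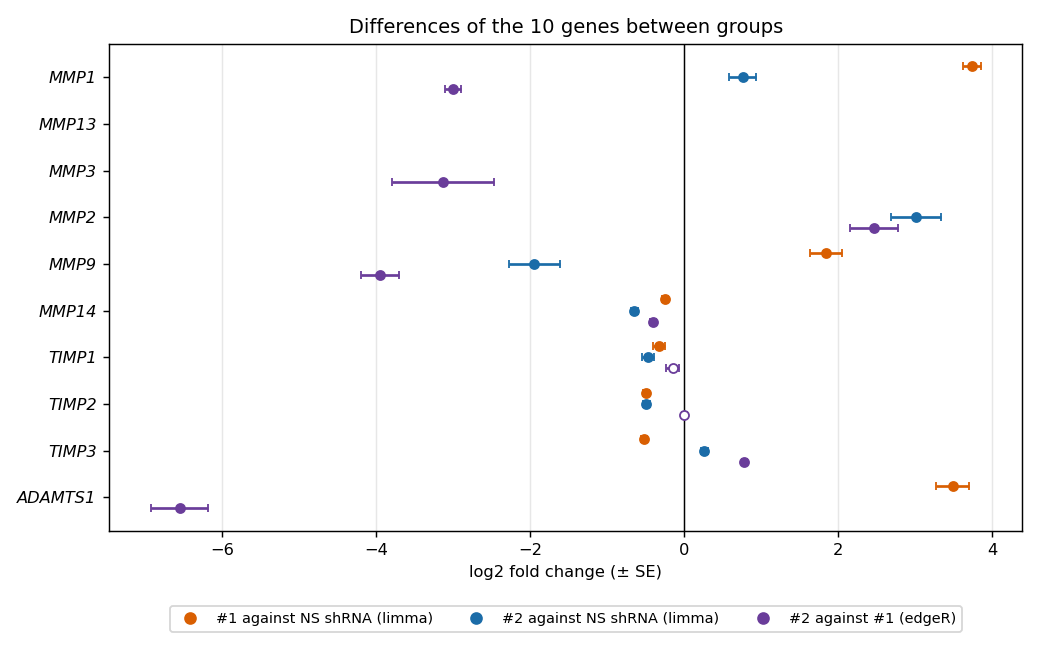
Log2 fold change with its standard error (x axis) for each gene (y axis): ASAH1 shRNA #1 and ASAH1 shRNA #2 against NS shRNA by limma, and ASAH1 shRNA #2 against ASAH1 shRNA #1 by edgeR on whole reads. Filled points have an adjusted p below 0.05 and missing points were not tested. MMP9 at 1.84 and −1.95 and TIMP3 at −0.53 and 0.26 lie on opposite sides of 0, and the TIMP2 points of both hairpins coincide near −0.49.

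The ratio of an enzyme to its inhibitor within a library does not depend on the size factor. The ratios were formed from levels per length, and with 3 against 3 libraries no exact permutation test can give a p below 0.1. The log2 ratio of MMP14 to TIMP2 was −1.41 ± 0.040 (SD) in NS shRNA cells, −1.16 ± 0.034 with ASAH1 shRNA #1 and −1.56 ± 0.054 with ASAH1 shRNA #2. TIMP2 thus exceeded MMP14 2.65-fold, 2.24-fold and 2.96-fold. The log2 ratio of MMP1 to TIMP1 was −9.21 ± 0.13, −5.12 ± 0.076 and −7.97 ± 0.19, a ratio 17.1 times that of NS shRNA with ASAH1 shRNA #1 and 2.36 times with ASAH1 shRNA #2.

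For the 6 MMP genes summed against the 3 TIMP genes summed, the log2 ratio was −2.64 ± 0.10 in NS shRNA cells, −2.35 ± 0.062 with ASAH1 shRNA #1 and −2.91 ± 0.031 with ASAH1 shRNA #2. In each of these 6 comparisons with NS shRNA the libraries of the groups did not overlap, and p was 0.1, the smallest possible (exact permutation test, two-sided, n = 3 against 3), and 0.1 after Benjamini-Hochberg adjustment over the 6. The direction of the sum with ASAH1 shRNA #2 rested on MMP14: without it, the log2 ratio was 0.97 above that of NS shRNA instead of 0.28 below it. With ASAH1 shRNA #1 the difference without MMP14 was 3.72, as compared to 0.28 with it. When TIMP2 was left out of the TIMP sum instead, the ASAH1 shRNA #1 difference was 0.23 and its libraries overlapped with those of NS shRNA (exact permutation test, p = 0.2). Transcript ratios say nothing on the amount of active enzyme.

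**Figure D4:**
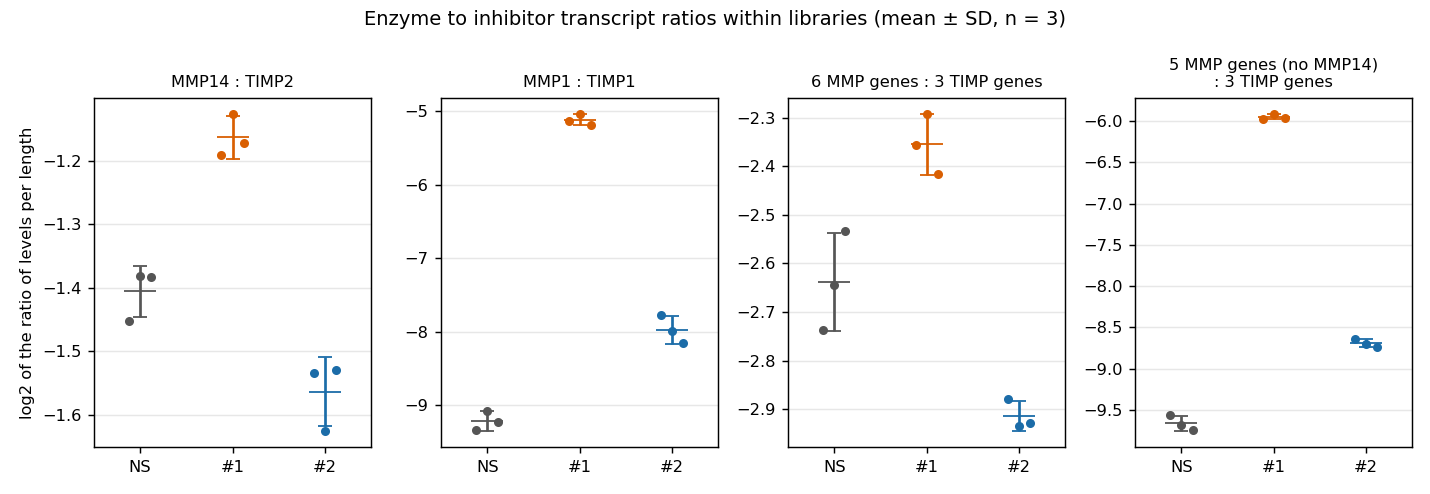
Log2 ratio of levels per length (y axis, a separate scale in each panel) in each library of NS shRNA, ASAH1 shRNA #1 and ASAH1 shRNA #2, with the group mean and SD (n = 3). In the first 3 panels ASAH1 shRNA #1 lies above NS shRNA, and ASAH1 shRNA #2 lies below NS shRNA for MMP14 to TIMP2 (−1.56 against −1.41) but above it for MMP1 to TIMP1 (−7.97 against −9.21).

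MMP1, MMP3 and MMP13 stand in a run of 9 MMP genes on chromosome 11, all on the minus strand, from MMP7 at its left end (chr11:102520508-102530750) to MMP13. MMP1 was the only gene of the run that passed the filter against NS shRNA. MMP10, the neighbour of MMP1 (chr11:102770502-102780628), and MMP27 held 0 reads in all 9 libraries, which allows up to 3 reads in each. MMP7, singled out after its values were seen, went the other way from MMP1, with 10, 14 and 16 reads in NS shRNA, 0, 1 and 3 with ASAH1 shRNA #1 and 2, 7 and 6 with ASAH1 shRNA #2, and was not tested against NS shRNA.

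Promoter sequence was matched in the RefSeq table (GRCh38.p14) for 3 of the 10 genes. They are MMP14 and TIMP1, which fell with both hairpins, and TIMP3, which did not. The window runs from 200 to 31 bases before the RefSeq start, and the motifs were the GC box GGGCGG, bound by SP-family factors, and the AP-1 site TGANTCA, the element best known from MMP promoters, each on both strands. GC boxes are in capitals, and the exact letters TGANTCA were not found in the 3 windows. Near matches, such as the tgagtaa in the window of TIMP1, were not searched, so an AP-1 site with other letters may be present.
MMP14, plus strand, chr14:22836385-22836554: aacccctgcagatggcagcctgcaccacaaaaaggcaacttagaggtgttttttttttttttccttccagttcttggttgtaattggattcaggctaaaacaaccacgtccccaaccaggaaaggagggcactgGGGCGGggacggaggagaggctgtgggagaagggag
TIMP1, plus strand, chrX:47582236-47582405: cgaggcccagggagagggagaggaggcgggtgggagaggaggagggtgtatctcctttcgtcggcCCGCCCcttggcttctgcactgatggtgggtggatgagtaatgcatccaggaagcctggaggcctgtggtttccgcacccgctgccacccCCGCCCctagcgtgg
TIMP3, plus strand, chr22:32801505-32801674: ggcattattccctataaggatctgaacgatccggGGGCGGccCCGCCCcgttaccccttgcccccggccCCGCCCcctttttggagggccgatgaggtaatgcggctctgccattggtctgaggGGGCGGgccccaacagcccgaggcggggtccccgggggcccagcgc

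MMP14 held 1 GC box, TIMP1 held 2 and TIMP3 held 4. Over all 35116 promoters of the table the same window held a GC box in 36.0% and the AP-1 letters in 4.78%, and a match is a description of the letters, not of binding.

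Other proteases of the same families were read for context, from lists chosen with the members. Over all genes tested, 32.8% were called higher and 33.3% lower with ASAH1 shRNA #1, and 33.5% and 33.4% with ASAH1 shRNA #2. The counts called in this and the following lists therefore say little about the families by themselves. Of 17 other MMP genes, 7 were tested with each hairpin, and 1 was higher and 5 lower each time. MMP28, MMP11 and MMP24 fell with both hairpins. MMP11 (stromelysin 3) was at −1.84 ± 0.11 and −2.18 ± 0.14 on the log2 scale and MMP24, a membrane-type enzyme, at −1.33 ± 0.11 and −1.68 ± 0.13, in the order ASAH1 shRNA #1 and #2 (limma, adjusted p at most 4.97e-06). MMP28 (epilysin) had 17 to 30 reads in a NS shRNA library and at most 3 in a knockdown library. It passed the filter only through the NS shRNA libraries, which favoured a difference in advance. MMP19 moved in the directions of MMP9, at 1.54 ± 0.093 with ASAH1 shRNA #1 and −0.68 ± 0.12 with ASAH1 shRNA #2 (limma, adjusted p = 7.98e-07 and 0.000606), while MMP16 was at −0.60 ± 0.20 and 1.63 ± 0.16 (limma, adjusted p = 0.0235 and 7.85e-06).

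Of 18 other ADAMTS genes, 10 were tested; 5 were higher and 3 lower with ASAH1 shRNA #1, and 4 were higher and 5 lower with ASAH1 shRNA #2, where ADAMTS13, 1 of the 5, passed the filter only through NS shRNA. ADAMTS6 rose by 3.60 ± 0.12 and 0.79 ± 0.14, ADAMTS9 by 0.81 ± 0.070 and 0.95 ± 0.076, and ADAMTS12 by 0.93 ± 0.13 and 0.73 ± 0.14 (limma, adjusted p at most 0.000776). ADAMTS14, a procollagen peptidase, ADAMTS7 and ADAMTS15 fell with both hairpins, and ADAMTS17 was at 0.64 ± 0.15 and −0.52 ± 0.21 (limma, adjusted p = 0.00466 and 0.0489).

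Of 9 ADAM genes, most of them known for shedding membrane proteins, 8 were tested, with 4 higher and 4 lower with ASAH1 shRNA #1 and 3 higher and 5 lower with ASAH1 shRNA #2. ADAM28, ADAM8 and ADAM10 fell with both, and ADAM15 and ADAM17 rose with both. ADAM10, a main sheddase of Notch, was at −1.29 ± 0.062 and −0.22 ± 0.065, and ADAM17, which releases TNF, rose by 0.29 ± 0.086 and 0.28 ± 0.085 (limma, adjusted p at most 0.0145). ADAM12 and ADAM19 rose with ASAH1 shRNA #1 and fell with ASAH1 shRNA #2, and ADAM9 did the reverse.

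The other inhibitors of the list fell where they were called. RECK, a membrane-anchored inhibitor of MMP2, MMP9 and MMP14, was at −0.91 ± 0.071 and −0.61 ± 0.076 on the log2 scale, and TFPI2, a secreted serine protease inhibitor that blocks plasmin, at −0.97 ± 0.039 and −0.44 ± 0.049 (limma, adjusted p at most 4.43e-05). TIMP4 was at −0.10 ± 0.15 with ASAH1 shRNA #1 (limma, adjusted p = 0.577) and fell by 0.61 ± 0.13 with ASAH1 shRNA #2 (limma, adjusted p = 0.00193). Of the 4 genes of this list 3 were tested, and 2 and 3 were called lower.

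Of 9 activators and partners, 6 were tested, with 2 higher and 4 lower for each hairpin. PLAU, the urokinase that turns plasminogen into plasmin, rose by 1.33 ± 0.039 with ASAH1 shRNA #1 and fell by 1.70 ± 0.051 with ASAH1 shRNA #2 (limma, adjusted p = 1.16e-08 and 5.07e-09). PLAT, the tissue-type activator of plasminogen, went the other way, by −0.39 ± 0.044 and 1.41 ± 0.053 (limma, adjusted p = 4.23e-05 and 1.55e-08). Between the hairpins PLAU differed by −3.03 ± 0.043 and PLAT by 1.79 ± 0.044 (edgeR, adjusted p = 1.67e-12 and 9.01e-11). FURIN, the convertase that cuts the MMP14 precursor, was at −0.40 ± 0.054 and −0.59 ± 0.069, LCN2, a partner of MMP9, at −0.76 ± 0.056 and −0.26 ± 0.070, and BSG, known as an inducer of MMPs, at −0.15 ± 0.044 and −0.19 ± 0.048. PCSK7, another convertase, rose by 0.18 ± 0.060 and 0.38 ± 0.067 (limma, adjusted p of these 4 genes at most 0.0257).

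Of 11 matrix substrates 8 were tested, with 1 higher and 4 lower for each hairpin. Of those lower, COL3A1 with ASAH1 shRNA #1 and VCAN with ASAH1 shRNA #2 passed the filter only through NS shRNA. The type IV collagen chain COL4A1 was at −0.85 ± 0.061 and −1.10 ± 0.089 and its partner COL4A2 at −0.26 ± 0.064 and −0.52 ± 0.064. FN1 (fibronectin) rose by 0.64 ± 0.079 with ASAH1 shRNA #1 and fell by 1.00 ± 0.088 with ASAH1 shRNA #2, and COL1A2 was at −1.48 ± 0.093 and 0.31 ± 0.10 (limma, adjusted p at most 0.0175).

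**Figure D5:**
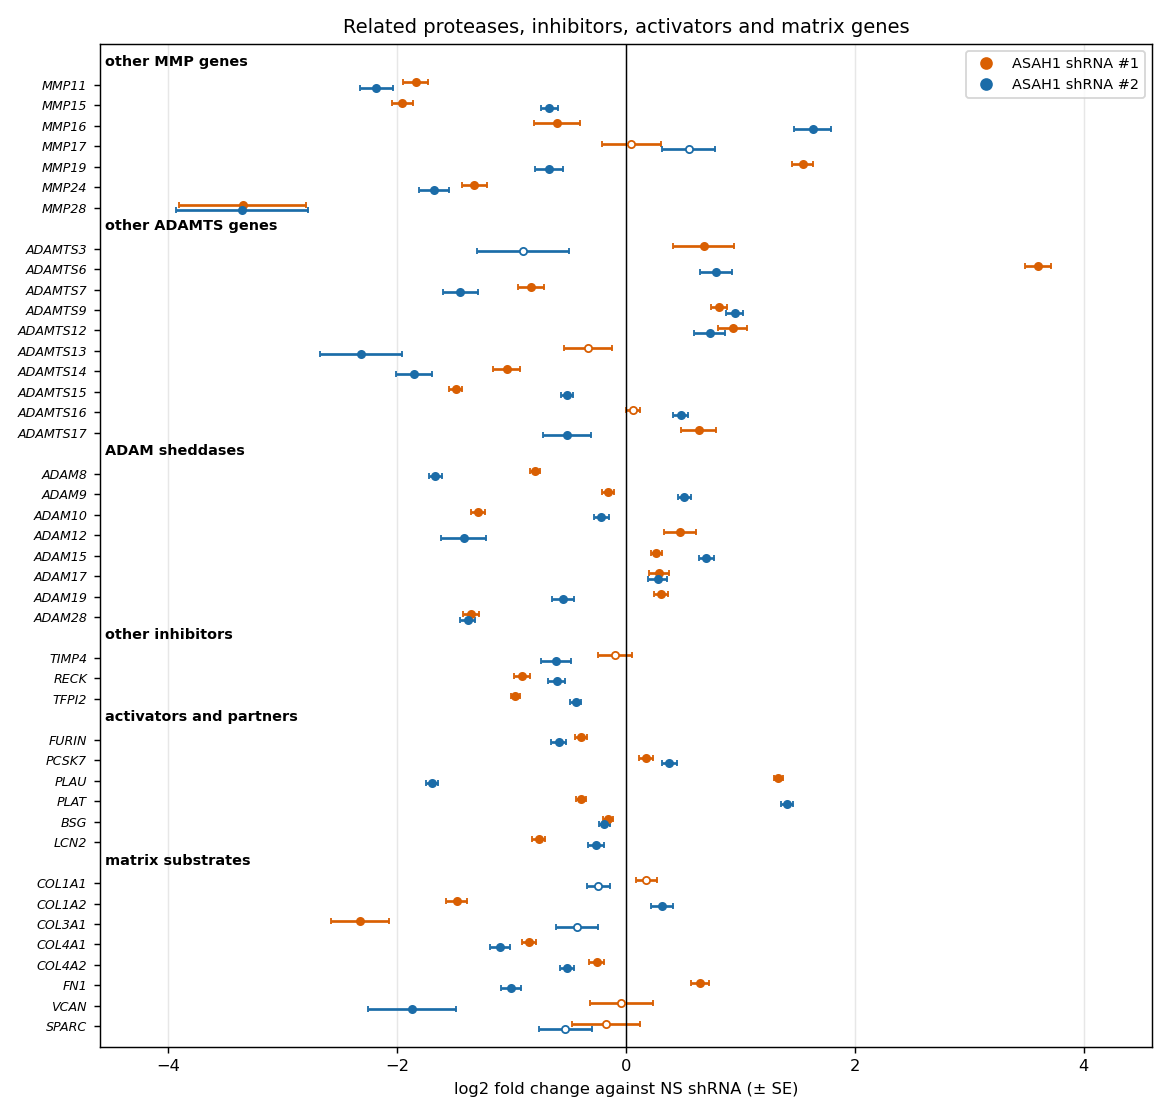
Log2 fold change against NS shRNA with its standard error (x axis) of the tested genes of each related list (y axis), with ASAH1 shRNA #1 and ASAH1 shRNA #2 as separate points. Filled points have an adjusted p below 0.05. PLAU at 1.33 and −1.70 and PLAT at −0.39 and 1.41 show opposite directions, and RECK at −0.91 and −0.61 lies below 0 with each hairpin.

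As a description, the gene with the nearest pair of log2 fold changes was sought for each member tested with both hairpins, among genes whose mean normalised count was 100 or more in both tables. MMP1 (3.73 and 0.76) was nearest to ADAMTS6 (3.60 and 0.79), at a distance of 0.14 in log2 units among 11445 genes. For MMP9 (1.84 and −1.95) the nearest gene was PLAU (1.33 and −1.70), at a distance of 0.57. The nearest genes of MMP14, TIMP1, TIMP2 and TIMP3 were CCNB1, FAM213A, LRRC3 and BLVRA, at 0.013, 0.012, 0.0025 and 0.031. The pairs rest on the same 9 libraries and share the NS shRNA values.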

How the data were processed

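MDA-MB-231 libraries from 3 groups of 3 were compared. The authors trimmed reads (Trimmomatic 0.36), aligned them to hg38 (STAR 2.7.1a), counted them by strand with HTSeq and deposited, per hairpin, normalized read counts (signal: reads divided by DESeq2 size factors, DESeq2 1.28), beside their own fold changes and p-values, which were not used. Another methods passage names other tools, and oligo-dT selection and ribosomal depletion are both stated. A block of 28 symbols had become dates.

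From the deposited values, limma 3.58.1 with trend was run on log2(value + 1) with a minimum mean of 10, and Benjamini-Hochberg adjustment ran over all genes at 0.05. Whole reads were recovered for 100% of values (tolerance 0.1) and compared between hairpins with edgeR 4.0.16 (TMM, filterByExpr). Its SE and interval come from its F statistic. Ratios had exact permutation tests (scipy). The limma, edgeR and DESeq2 fits against NS shRNA were tested on simulated data with 200 changed genes, far fewer than were called here. The fit between hairpins was not simulated. Levels per length used GENCODE 44. The authors call the libraries of a group biological replicates; whether they came from separate cultures is not given in the sources used here, and p-values measure the spread between these libraries. No pair of libraries was a copy (chi-square per gene at least 5.26). Intervals and floors (3 reads) cover counting error only.

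The members and lists were chosen with earlier results of these data known. All members were named; from other lists, up to 3 genes per direction called alike with both hairpins and those called in opposite directions. The matrix substrate list is given without 1 of its genes, and list genes outside this rule enter the counts only. Alternatives were other pseudocounts, filters, scalings, DESeq2 1.42.0, a replicate block and left-out libraries.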

Additional observations from a re-analysis of the deposited data

Results flagged for a closer look

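Listed here are the 7 of 9 tested members that differed between the hairpins. The direct test was edgeR on recovered reads, ASAH1 shRNA #2 against ASAH1 shRNA #1. It called 31.1% of 14714 genes higher and 32.1% lower, so a call by itself says little about the members. MMP2, MMP3, MMP9 and ADAMTS1 passed the filter of this test through the groups in which they were high. On the log2 scale MMP1 differed by −3.01, MMP9 by −3.95, MMP3 by −3.14, MMP14 by −0.40 and ADAMTS1 by −6.56. MMP2 differed by 2.46 and TIMP3 by 0.78. For MMP9, TIMP3 and, by its reads, ADAMTS1, the difference lay between opposite directions against NS shRNA, whereas for MMP1 and MMP14 it lay between a larger and a smaller change in the same direction. ASAH1 itself was lower with ASAH1 shRNA #2 than with ASAH1 shRNA #1, at −0.88 ± 0.051 (edgeR, adjusted p = 6.82e-08), and the amount of knockdown and the hairpin sequence cannot be told apart. Groups of 3 libraries were not searched for outlying samples.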

How the results depend on the processing

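The counts of members called higher and lower stayed within 1.5 times their values under every alternative run, but with so few members this allows real changes. With a minimum mean of 50, 2 were higher and 3 lower with ASAH1 shRNA #2. Without a filter, 4 were higher with ASAH1 shRNA #1 and 5 lower with ASAH1 shRNA #2. Between the hairpins, 7 were lower with upper quartile normalization. Of 325 refits of 23 single-member differences, 323 kept direction and side of the threshold, including all 165 with 1 library left out. The 325 leave out MMP2 and MMP9 with ASAH1 shRNA #2 at a minimum mean of 50. Neither reached that mean, so their calls were lost there. Without single libraries ADAMTS1 between the hairpins ranged from −7.63 to −6.05 and MMP3 from −4.91 to −2.45. The other 2 of the 325 were TIMP1 and TIMP2 between the hairpins, at −0.23 and −0.085 with upper quartile normalization. The summed MMP to TIMP difference moved to 3.72 for ASAH1 shRNA #1 and turned to 0.97 for ASAH1 shRNA #2 when MMP14 was left out, since MMP14 holds nearly the whole sum. Without TIMP2 the differences were 0.23 and −0.37, and the libraries of ASAH1 shRNA #1 then overlapped with those of NS shRNA. Replicate numbers did not pair the libraries: deviations of same-numbered libraries correlated at −0.316 to −0.098. With the replicate block the members called were again 3 higher and 4 lower for each hairpin and 2 higher and 5 lower between hairpins. Depth limited MMP13 in all groups and ADAMTS1 with ASAH1 shRNA #2. It also limited MMP3 in NS shRNA and with ASAH1 shRNA #2, and MMP2 in NS shRNA and with ASAH1 shRNA #1.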
